A study of Mus musculus with 6 samples.

Results

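The nuclear genes for the subunits of mitochondrial oxidative phosphorylation were examined in aortic valve RNA from control and Acvr1:Nfatc1Cre mutant mice. The members were all rows of the gene count table whose symbol followed the naming patterns of the subunit families (Nduf A, B, C, S and V, Sdh, Uqcr, Cox 4 to 8 and Atp5). They were 83 of the 23107 genes in the table. By symbol alone, complex I had 36, complex II 4, complex III 8, complex IV 19 and complex V 16. Counts and shares per complex follow these placements. Whether each protein belongs to the complex so assigned was not tested. In all, 82 of the 83 passed the filter on low counts (at least 10 counts in at least 3 of 6 libraries) and entered the tests, beside 15354 genes tested over the whole table. The gene that did not pass was Cox8c, the testis form of a complex IV subunit, with 0 counts in all 6 libraries, where 3 counts would correspond to between 0.0538 and 0.0931 CPM, the count scaled to the total of the library. A further member, Cox4nb, is an older symbol of Emc8, a subunit of a membrane complex of the endoplasmic reticulum. It thus met the naming rule without being a respiratory subunit. Cox4nb was kept in the counts, shares and medians given for the members, and its own values are described apart.

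Oxidative phosphorylation is carried out by 5 complexes of the inner mitochondrial membrane. Complexes I and II pass electrons from NADH and succinate to ubiquinone, complex III passes them on to cytochrome c, complex IV reduces oxygen, and complex V, the ATP synthase, uses the proton gradient that complexes I, III and IV build up. Heart muscle is among the tissues richest in these complexes, and some subunits of complex IV have a separate gene for a form found in heart and skeletal muscle.

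RNA came from aortic valve tissue of 4-month-old outbred mice, in 3 control and 3 mutant libraries. Mutants carried a Cre-activated transgene for a constitutively active type I BMP receptor, Acvr1, and Nfatc1Cre, a Cre inserted in the Nfatc1 locus that recombines in endocardium and its valve derivatives and in cells at the junction of leaflet and wall, but not in heart muscle or smooth muscle. The controls are labelled wild type. By the methods of the study, control mice came from the same kind of cross and may have carried the transgene alone, the Cre alone or neither. Which of these a library held is not given, nor is the number of mice or the sex behind a library. The p-values therefore measure the spread between these 6 libraries. Gene counts summed to between 32218343 and 55728854 per library. Acvr1 itself lay at 49.1, 60.5 and 67.4 CPM in the controls and at 56.5, 57.9 and 49.9 CPM in the mutants, with no difference past the test (edgeR adjusted p = 0.999); whether reads of the transgene are counted under this symbol is not given. The tissue label was checked against markers: 10 of 10 genes of valve interstitial cells were detected and summed to between 16359 and 17423 CPM in controls and between 14206 and 18627 CPM in mutants, while the 18 genes of heart muscle summed to between 16369 and 51476 CPM in controls and between 28532 and 56900.2 CPM in mutants. RNA of heart muscle was thus present in all 6 libraries, at levels that differed by more within a group than between the groups. In bulk tissue, fewer cells of a type and less RNA per cell cannot be told apart.

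The members took up a sizeable share of the RNA. They held 4.03%, 2.01% and 3.94% of all gene counts in controls 1, 2 and 3, and 4.49%, 3.22% and 4.00% in mutants 1, 2 and 3. Complex V, with 16 genes, held the largest part in every library, between 0.705% and 1.68% of all counts, and complex I, with 36 genes, between 0.60% and 1.27%. Complex II, with 4 genes, held between 0.123% and 0.272%.

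Levels of different genes were compared as CPM per kilobase of merged exons. On this scale the highest member was Cox6a2, the heart and skeletal muscle form of subunit VIa of complex IV, at 1200 ± 446 CPM per kilobase (SD, n = 6), followed at the same mean by Atp5b, the catalytic beta subunit of ATP synthase, at 835 ± 267 and Cox6b1 at 835 ± 212. The highest member was Ndufb9 in complex I (565 ± 151 CPM per kilobase), Sdhd, a membrane anchor, in complex II (356 ± 84.0) and Uqcr11 in complex III (683 ± 174). These orders depended on the length used: with the length of the principal transcript in place of merged exons, Atp5b was highest at 1846 CPM per kilobase and Cox6a2 stood at 1200. The median member lay at 229 CPM per kilobase of merged exons, and 81 members exceeded 1 CPM. Above Cox8c, which had no counts, the lowest members were Cox7b2 at 0.403 ± 0.0894 CPM per kilobase and Cox6b2, the testis form of subunit VIb, at 2.93 ± 0.664. Atp5s followed at 10.8 ± 1.86 CPM per kilobase, Ndufs5 at 14.4 ± 11.5, Cox4nb at 14.9 ± 3.22 and Cox4i2, the form of subunit IV known from lung, at 27.8 ± 8.60.

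**Figure D1:**
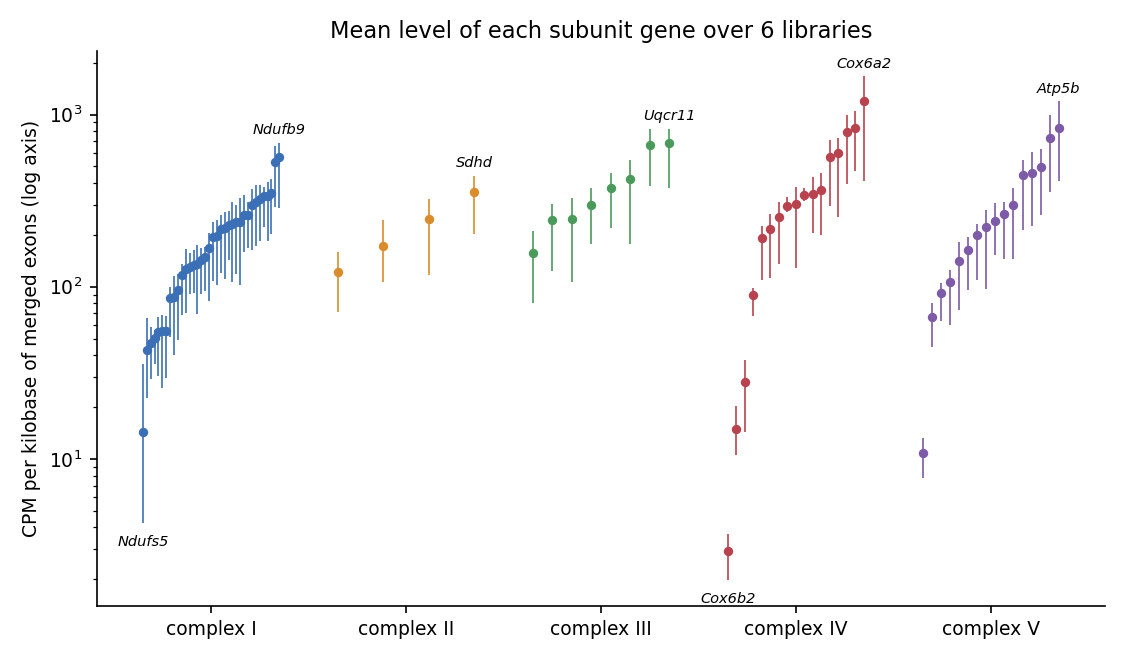
Mean level of each member over the 6 libraries in CPM per kilobase of merged exons (log axis), sorted within each complex; bars run from the lowest to the highest library, and Cox7b2 and Cox8c, below 1 CPM, are left out. Most members lie within a band around the median of 229, with Cox6a2 highest at 1200 and Cox6b2 lowest of those drawn at 2.93.

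The members varied together from library to library. Atp5b stood at 4276, 1754 and 3616 CPM in controls 1, 2 and 3 and at 5055, 2921 and 3602 CPM in mutants 1, 2 and 3. Control 2 was the lowest library and mutant 1 the highest, and the groups overlapped. Control 2 was the lowest library for 78 of the 82 members tested, and mutant 1 the highest for 48, mutant 3 for 16, control 3 for 8 and control 1 for 7. The ratio of the highest to the lowest library had a median of 2.24 over the members, and the SD of log2 CPM over the 6 libraries had a median of 0.44, against 0.24 for all genes tested.

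**Figure D2:**
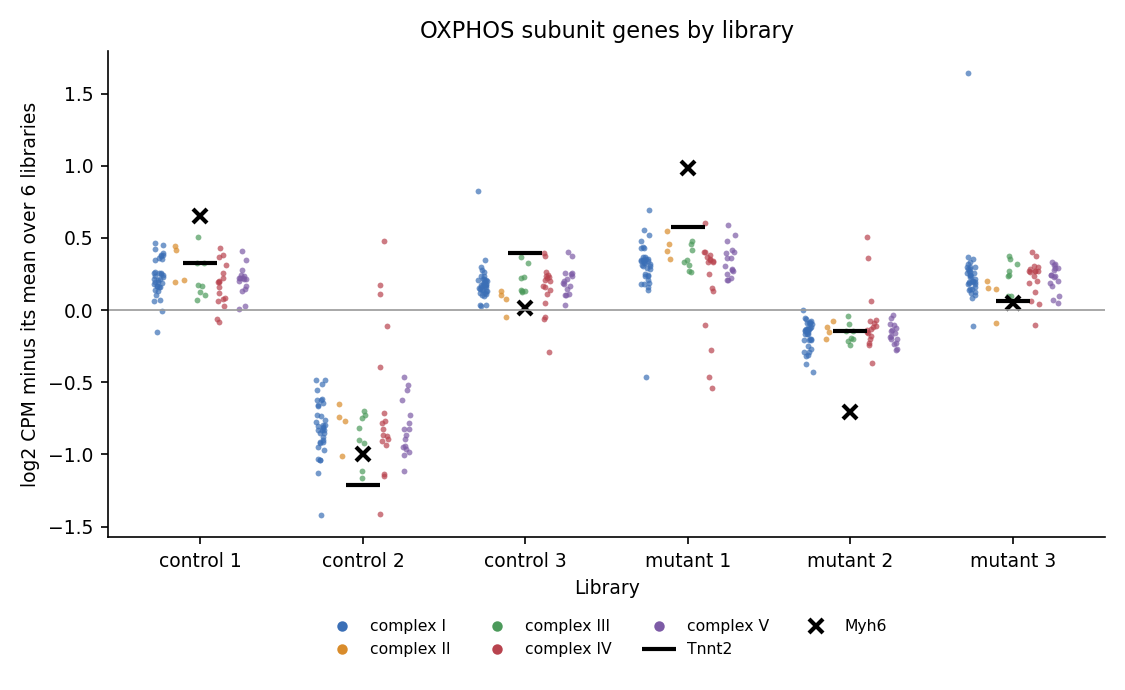
Log2 CPM of each member minus its own mean over the 6 libraries, by library and coloured by complex, for the 81 members above 1 CPM; the black dash is Tnnt2 and the cross Myh6, on the same scale. In control 2 nearly all points lie below 0, in mutant 2 most lie slightly below it, and in the other 4 libraries most lie above it.

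In complex I, the core subunits that carry electrons followed this order. Ndufv1, which binds NADH and its flavin cofactor, was measured at 792, 270 and 708 CPM in controls and at 864, 513 and 626 CPM in mutants. Ndufs1, the largest iron-sulphur subunit, was measured at 449, 182 and 335 CPM in controls and at 531, 284 and 304 CPM in mutants. For both genes control 2 was lowest, mutant 1 highest and mutant 2 second lowest, and the groups overlapped. Ndufa9, an accessory subunit of the arm that reaches into the matrix, spanned 145 to 369 CPM over the 6 libraries, again between control 2 and mutant 1. Ndufs1 overlaps Eef1b2 on the opposite strand, and the strand setting of the counting is not given. In all, 25 members overlap another coding entry in this way or on the same strand, and for Atp5o that entry has the same symbol.

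In complex II, Sdha, the flavoprotein that oxidises succinate, was measured at 935, 438 and 667 CPM in controls and at 1008, 599 and 648 CPM in mutants. Sdhb, the iron-sulphur subunit, was measured at 704, 262 and 568 CPM in controls and at 724, 488 and 587 CPM in mutants. In complex III, Uqcrc1, a core protein, was measured at 1361, 443 and 1052 CPM in controls and at 1283, 933 and 1029 CPM in mutants. It was highest in control 1 rather than in mutant 1, with control 2 again lowest. Uqcrfs1, the Rieske iron-sulphur protein that hands electrons to cytochrome c1, was measured at 681, 243 and 635 CPM in controls and at 746, 507 and 642 CPM in mutants. In complex IV, Cox5a, a structural subunit bound on the matrix side, was measured at 748, 271 and 690 CPM in controls and at 797, 570 and 744 CPM in mutants. In complex V, Atp5a1, the alpha subunit, was measured at 2887, 1115 and 2336 CPM in controls and at 3109, 1970 and 2276 CPM in mutants. In each of these 6 genes control 2 was the lowest library and mutant 2 the lowest of the mutants.

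The members were then set against 2 genes of the heart muscle sarcomere. Myh6, the alpha myosin heavy chain, was measured at 9051, 2892 and 5819 CPM in controls and at 11391, 3540 and 5948 CPM in mutants. Tnnt2, cardiac troponin T, was measured at 4515, 1555 and 4754 CPM in controls and at 5373, 3257 and 3768 CPM in mutants. Both were lowest in control 2 and highest in mutant 1, and they differed most in mutant 2, where Myh6 was close to its lowest value and Tnnt2 was not. Their log2 levels had a Pearson r of 0.854 (exact permutation p = 0.00833) and a Spearman rho of 0.829 (exact permutation p = 0.0583) over the 6 libraries. The slope of each gene on the log2 CPM of Tnnt2 or Myh6 was fitted across all genes with edgeR; a slope of 1 means that a gene changed by the same factor as the cardiac gene. Both values of a pair come from the same libraries and so share whatever differed between them.

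On Tnnt2, 72 of the 82 members (87.8%) had a slope past the threshold (edgeR adjusted p under 0.05 over all genes), all of them rising, where 4.12% of all genes tested rose, 2.43% fell and 6.55% passed in either direction. The median slope of the members was 0.65, against 0.00 for all genes, and 78 of 82 members had a slope above 0, where 49.8% of all genes did. The called members were 33 of 36 in complex I, 4 of 4 in complex II, 8 of 8 in complex III, 12 of 18 in complex IV, where Cox4nb was 1 of those not called, and 15 of 16 in complex V. The slopes of these called members ran from 0.32 to 1.12, and the adjusted p-values from 0.00721 to 0.0494. The 72 calls rested on control 2: without that library 0 members and 0 genes passed, and the median slope was 0.51, with 76 of 81 members above 0. Without mutant 1, 45 members passed among 353 genes called, against 1006 genes with all 6 libraries.

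Most members changed by a smaller factor than Tnnt2 did. For 55 members the 95% interval of the slope lay between 0 and 1, and for 23 it held 1. Among core subunits the slope on Tnnt2 was 0.94 ± 0.09 (SE) for Ndufv1, 0.91 ± 0.11 for Uqcrfs1, 0.88 ± 0.12 for Cox5a, 0.88 ± 0.13 for Uqcrc1, 0.81 ± 0.11 for Sdhb and 0.80 ± 0.13 for Atp5a1, all past the threshold. Sdha had the lowest of these at 0.61 ± 0.14, with an adjusted p of 0.0494 that moved just over the threshold under other scaling factors. For comparison, the 17 heart muscle markers other than Tnnt2 had a median slope of 1.11, and 11 of them passed, such as Tnni3 at 1.13 and Ckmt2, the mitochondrial creatine kinase of muscle, at 1.19.

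**Figure D3:**
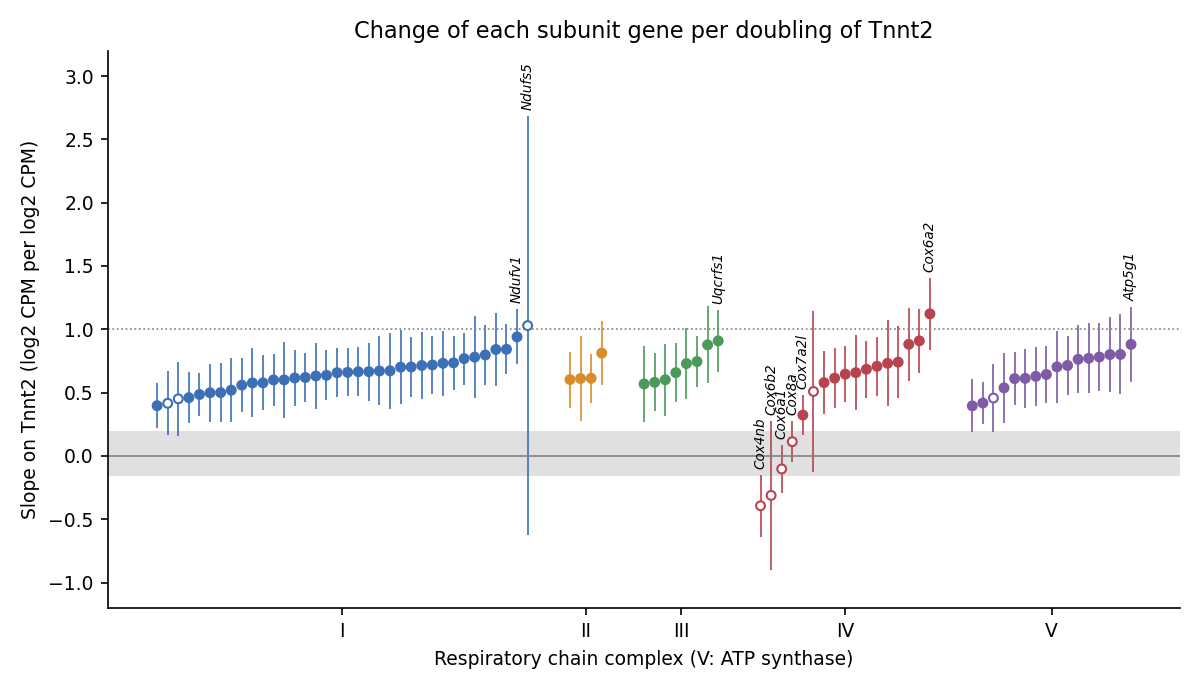
Slope of each member above 1 CPM on the log2 CPM of Tnnt2 over the 6 libraries, sorted within complex, with 95% intervals; filled points passed an adjusted p of 0.05 and open points did not, the grey band is the interquartile range of all genes tested, and the dotted line marks a slope of 1. Members of complexes I, II, III and V lie between about 0.40 and 0.94 apart from Ndufs5, which lies at 1.03 with a wide interval. Complex IV runs from -0.31 for Cox6b2 to 1.12 for Cox6a2, and Cox4nb, which is not a respiratory subunit, is drawn with it at -0.39.

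On Myh6 the slopes pointed the same way but few passed. Only 2 of the 82 members, Ndufs1 with a slope of 0.67 ± 0.10 and Sdha with 0.56 ± 0.09, had an adjusted p under 0.05 (0.0401 and 0.0488), against 0.97% of all genes in either direction and 0.782% rising. At an unadjusted p under 0.05, 76 members (92.7%) rose with Myh6, where 10.9% of all genes did. The median slope of the members on Myh6 was 0.47, against -0.01 for all genes. Both calls were lost when any library other than mutant 2 was left out, and without mutant 2, 14 members passed, 13 of them rising, among 773 genes called; without control 2 the median slope fell to 0.25.

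Correlations over the 6 libraries were a second measure, and here the order of the cardiac genes depended on the coefficient. The mean log2 CPM of the members had a Pearson r of 0.969 and a Spearman rho of 0.771 with Tnnt2, and an r of 0.847 and a rho of 0.943 with Myh6. Over single members the median r was 0.962 with Tnnt2 and 0.838 with Myh6. The r was above 0.9 for 71 members with Tnnt2 (5.7% of all genes) and for 9 with Myh6 (4.29%). With its sign kept, r was larger with Tnnt2 for 77 of 82 members. The 5 others were Ndufs1 (0.957 with Myh6, 0.921 with Tnnt2), Sdha (0.965 and 0.88), Cox8a (0.957 and 0.731), Cox6a1 and Cox7b2, of which the last pair had negative values with both. The 77 included Cox4nb and Cox6b2, whose r was only less negative with Tnnt2 (-0.847 and -0.589) than with Myh6 (-0.881 and -0.703). Of the 164 correlations, 0 passed in an exact permutation test adjusted over all genes, and the smallest adjusted p was 0.114. The test has only 720 orders of 6 libraries, and its smallest unadjusted p of r over the members was 0.00139. No member could pass over all genes unless many other genes reached p-values as low. The test therefore cannot decide on single members. Without the libraries farthest from the median, control 2 and mutant 1, the median r was 0.701 with Tnnt2 and 0.829 with Myh6, over 4 libraries. Within groups, with each library taken as its deviation from the mean of its genotype, the median r was 0.962 with Tnnt2 and 0.851 with Myh6.

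**Figure D4:**
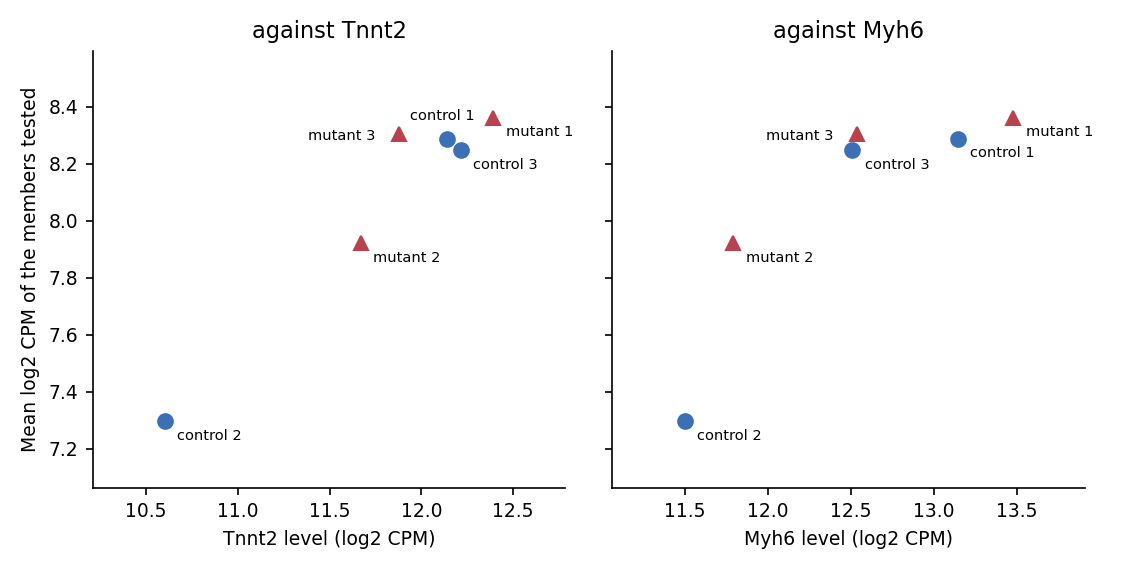
Mean log2 CPM of the 82 members tested (vertical axis) against the log2 CPM of Tnnt2 (left) and Myh6 (right), 1 point a library; circles are controls and triangles mutants. Control 2 lies lowest on all 3 measures, mutant 2 second lowest, and the other 4 libraries lie between 8.25 and 8.36 on the vertical axis.

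Some isoform pairs, where a muscle form and a form of most tissues encode the same subunit, held a contrast between their genes. Cox6a2, the muscle form of subunit VIa at chr7:128205435-128206387 (GRCm38, the mm10 build), was measured at 1010, 280.5 and 887 CPM in controls and at 1139, 681 and 900 CPM in mutants. Cox6a1, its partner form at chr5:115345642-115348981, was measured at 197, 221 and 196 CPM in controls and at 191, 195 and 233 CPM in mutants. Cox6a2 overlaps Itgad on the opposite strand. The muscle form spanned a 4.06-fold range over the libraries while its partner stayed within a narrow band, and control 2, lowest for Cox6a2, was the second highest for Cox6a1. The slope on Tnnt2 was 1.12 ± 0.12 for Cox6a2 (adjusted p = 0.00841) and -0.10 ± 0.08 for Cox6a1, whose 95% interval ran from -0.29 to 0.08. The ratio of Cox6a2 to Cox6a1 counts was 5.14, 1.27 and 4.52 in controls and 5.98, 3.48 and 3.86 in mutants.

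Subunit VIII showed the same kind of contrast. Cox8b, its heart and skeletal muscle form at chr7:140898945-140900446, was measured at 260, 91.8 and 261 CPM in controls and at 256, 170 and 245 CPM in mutants. Cox8a, the form of most tissues at chr19:7215153-7217616, was measured at 224, 196 and 205 CPM in controls and at 232, 199 and 218 CPM in mutants. The ratio of Cox8b to Cox8a counts was 1.16, 0.468 and 1.28 in controls and 1.10, 0.856 and 1.13 in mutants, lowest in control 2 and second lowest in mutant 2. The slope on Tnnt2 was 0.91 ± 0.11 for Cox8b (adjusted p = 0.00955) and 0.11 ± 0.07 for Cox8a, with an interval from -0.05 to 0.27.

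Subunit VIIa did not share this contrast. Cox7a1, the heart and skeletal muscle form at chr7:30184144-30186078, was measured at 312, 157 and 379 CPM in controls and at 362, 223 and 380 CPM in mutants. Cox7a2, the form of most tissues at chr9:79755361-79759878, was measured at 360, 193 and 325 CPM in controls and at 410, 278 and 380 CPM in mutants. Both were lowest in control 2 and second lowest in mutant 2, with slopes on Tnnt2 of 0.73 ± 0.15 and 0.58 ± 0.11, both past the threshold. Cox7a2l, a related protein that joins complexes III and IV into supercomplexes, had a slope of 0.32 ± 0.07, also past the threshold.

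The c subunit of ATP synthase is encoded by 3 genes with the same mature protein. Atp5g1 was measured at 1205, 478 and 1363 CPM in controls and at 1329, 909 and 1283 CPM in mutants. Atp5g2 was measured at 166, 106 and 163 CPM in controls and at 176, 138 and 169 CPM in mutants. Atp5g3 was measured at 1082, 463 and 1065 CPM in controls and at 1192, 906 and 1097 CPM in mutants. All 3 were lowest in control 2 and second lowest in mutant 2, with slopes on Tnnt2 of 0.88 ± 0.13, 0.42 ± 0.07 and 0.76 ± 0.11, all past the threshold. Transcripts at least 95% identical to Atp5g2 over at least 50% of its length exist for other annotated genes, as for 12 members in all, so that reads may have been split between them.

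The ratio within a pair does not depend on the size of the library. Over 14 relations, 7 ratios by 2 cardiac genes, which were chosen after the values were seen, the log2 ratio of Cox6a2 to Cox6a1 had an r of 0.991 with Tnnt2 (exact permutation p = 0.00278, adjusted p = 0.013) and a rho of 0.943 (exact permutation p = 0.0167, adjusted p = 0.0778). Without control 2 and mutant 1 its r was 0.905. The ratio of Cox8b to Cox8a had an r of 0.959 with Tnnt2 (exact permutation p = 0.0181, adjusted p = 0.0389), a rho of 0.657 (exact permutation p = 0.175) and an r of 0.927 without those libraries. The ratio of Atp5g3 to Atp5g2 had an r of 0.937 with Tnnt2 (exact permutation p = 0.0181, adjusted p = 0.0389) and a rho of 0.6 (exact permutation p = 0.242), and its r was -0.081 without control 2 and mutant 1, so that the relation rested on those libraries. The ratio of Atp5g1 to Atp5g2 had an r of 0.953 (exact permutation p = 0.0194, adjusted p = 0.0389), a rho of 0.714 (exact permutation p = 0.136) and an r of 0.811 without those libraries. The ratio of Cox6b2, at under 5 CPM, to Cox6b1 fell with Tnnt2, with an r of -0.905 (exact permutation p = 0.00139, adjusted p = 0.013), a rho of -1 (exact permutation p = 0.00278, adjusted p = 0.0389) and an r of -0.974 without those libraries. Cox6b1 itself rose with Tnnt2 (slope 0.65 ± 0.09), while the slope of Cox6b2, -0.31 ± 0.25, did not pass the threshold. Without control 2 alone the r with Tnnt2 was 0.945 for Cox6a2 over Cox6a1 and -0.983 for Cox6b2 over Cox6b1, but 0.715 for Cox8b over Cox8a, 0.670 for Atp5g1 over Atp5g2 and 0.610 for Atp5g3 over Atp5g2. The ratios of Cox7a1 to Cox7a2 and of Cox4i2 to Cox4i1 had an r of 0.484 and of -0.342 (exact permutation p = 0.324 and 0.447). With Myh6 the ratios of Cox6a2 to Cox6a1 (r = 0.857, exact permutation, adjusted p = 0.013) and of Cox6b2 to Cox6b1 (r = -0.906, exact permutation, adjusted p = 0.0389) passed by r, and the other 5 did not. By rank neither of them passed, with a rho of 0.943 (exact permutation, adjusted p = 0.0778) and of -0.829 (exact permutation, adjusted p = 0.204). Without control 2 and mutant 1 their r with Myh6 was 0.911 and -0.687.

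**Figure D5:**
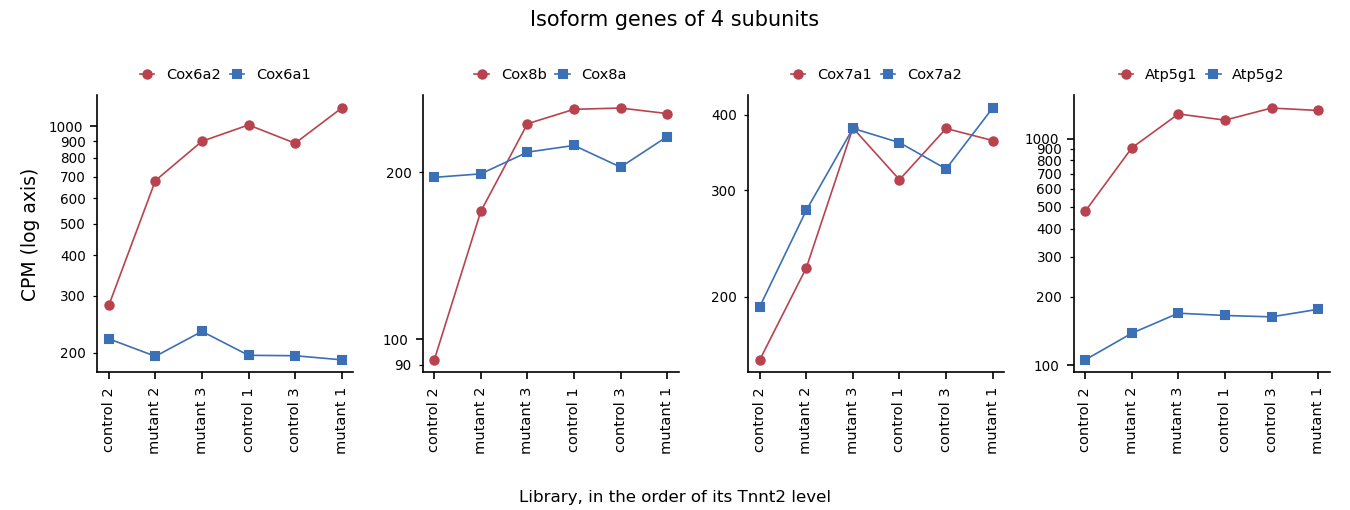
CPM (log axis, a separate range in each panel) of both genes of 4 isoform pairs, with libraries ordered by their Tnnt2 level from control 2 to mutant 1. Cox6a2 and Cox8b climb from 280.5 to 1139 and from 91.8 to 256 while Cox6a1 and Cox8a stay between 191 and 233 and between 196 and 232; both genes of the Cox7a and Atp5g pairs climb.

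The promoters of both Cox8 genes and of Cox6a1, all of complex IV, are shown since these isoforms are compared above, beside that of Atp5g3, a member of complex V that rose with Tnnt2. Windows from 250 bases before to 50 after each start were taken from RefSeq on GRCm38.p6, which held 73 windows for 68 of the 83 members; Cox6a2 was among those without a window. Capitals mark matches, on either strand, to the letters of 8 motifs searched: GCATGCGC (NRF1), CCGGAAGT (ETS, GABPA), TCAAGGTCA (ERR), AAGATGGC (YY1), CTAAAAATA (MEF2), CAGCTG (an E-box), GGGCGGGG (Sp1) and CCAAT. The 250 bases before the start are printed, as chr7:140900447-140900696 for Cox8b, chr19:7217617-7217866 for Cox8a, chr5:115348959-115349208 for Cox6a1 and chr2:73911327-73911576 for Atp5g3, all on the minus strand.
Cox8b: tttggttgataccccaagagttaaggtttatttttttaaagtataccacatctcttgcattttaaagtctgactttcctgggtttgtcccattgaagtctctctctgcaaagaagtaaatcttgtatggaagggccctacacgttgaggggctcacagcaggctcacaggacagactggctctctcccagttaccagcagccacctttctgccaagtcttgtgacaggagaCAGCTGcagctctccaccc
Cox8a: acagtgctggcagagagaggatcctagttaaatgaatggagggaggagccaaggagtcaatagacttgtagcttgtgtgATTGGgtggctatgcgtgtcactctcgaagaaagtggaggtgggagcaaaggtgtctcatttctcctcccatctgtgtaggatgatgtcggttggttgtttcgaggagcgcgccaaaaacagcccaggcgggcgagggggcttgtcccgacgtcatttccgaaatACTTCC
Cox6a1: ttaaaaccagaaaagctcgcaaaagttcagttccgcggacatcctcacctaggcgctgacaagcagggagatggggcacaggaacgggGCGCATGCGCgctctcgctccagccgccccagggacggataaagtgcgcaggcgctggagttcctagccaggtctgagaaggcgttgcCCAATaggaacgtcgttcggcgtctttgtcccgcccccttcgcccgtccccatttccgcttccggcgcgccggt
Atp5g3: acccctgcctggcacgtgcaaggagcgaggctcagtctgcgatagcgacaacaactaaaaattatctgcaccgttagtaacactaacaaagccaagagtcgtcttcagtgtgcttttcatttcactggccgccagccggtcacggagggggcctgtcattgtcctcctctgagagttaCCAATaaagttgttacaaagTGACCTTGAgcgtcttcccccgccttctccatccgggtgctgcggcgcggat

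In Cox8b the only match before the start was an E-box at -19 to -14. In Cox8a the reverse complement of the ETS letters began at -6 and ran 2 bases past the start, with a CCAAT match at -171. Cox6a1 held the NRF1 letters on both strands in overlapping matches from -162 to -153 and CCAAT at -74 to -70, and Atp5g3 the reverse complement of the ERR letters at -52 to -44 and CCAAT at -72 to -68. Over all windows, NRF1 letters were in 10 of 73 member windows (13.7%) and in 2.71% of 32851 windows of the same length, YY1 letters in 10 (13.7%) against 2.75%, ETS letters in 5 (6.85%) against 3.89%, and ERR letters in 2 (2.74%) against 0.423%. MEF2 letters were in 0 member windows against 0.518%, E-boxes in 6 (8.22%) against 16.3%, Sp1 letters in 13 (17.8%) against 17.6% and CCAAT in 31 (42.5%) against 37.4%. These are matches of letters and not measurements of binding.

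A few members did not follow the others. Ndufs5, an accessory subunit of complex I, was measured at 8.75, 3.64 and 17.2 CPM in controls and at 7.07, 7.24 and 30.4 CPM in mutants. It was highest in mutant 3 and control 3, and its SD of log2 CPM, 1.07, was the largest of all members. Its slope on Tnnt2 was 1.03 ± 0.71 (adjusted p = 0.482) and turned to -1.15 without control 2. At 14.4 CPM per kilobase of merged exons it was the lowest member of complex I, and BC002163, a gene whose transcript is at least 95% identical to it over at least 50% of its length, held 5.71, 0.949 and 1.35 CPM in controls and 1.80, 1.62 and 2.32 CPM in mutants. How reads that match both genes were counted is not given, so that the level of Ndufs5 is uncertain.

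Cox4nb, which is not a respiratory subunit, was measured at 86.8, 128 and 99.2 CPM in controls and at 66.7, 96.0 and 85.6 CPM in mutants. It was highest in control 2 and lowest in mutant 1, the reverse of most members, with a slope on Tnnt2 of -0.39 ± 0.10 that did not pass over all genes (adjusted p = 0.0732). It overlaps Cox4i1 on the opposite strand at chr8:120668222-120674207, which was measured at 1366, 612 and 1315 CPM in controls and at 1547, 1053 and 1437 CPM in mutants, with a slope of 0.74 ± 0.12. Cox4i2 was measured at 27.3, 11.3 and 24.1 CPM in controls and at 17.3, 29.8 and 21.9 CPM in mutants. It was lowest in control 2 but highest in mutant 2, with a slope of 0.51 ± 0.27 that did not pass and turned to -0.74 without control 2. Cox6b2 lay between 2.18 and 4.07 CPM and Cox7b2 between 0.154 and 0.282 CPM, both without a slope past the threshold.

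No member separated mutants from controls. The members held 3.33% ± 1.14 of all counts in controls and 3.90% ± 0.639 in mutants (SD, n = 3 each), and the groups overlapped. Of the 82 members, 80 had a fitted fold change above 0, where 52.2% of all genes did, and the median log2 fold change of mutants over controls was 0.20 against 0.01 over all genes. No member passed the edgeR test, where 0 of 15354 genes did (0% in the background). At an unadjusted p under 0.05 it was 0 of 82 members against 529 genes (3.45%), and DESeq2 called 0 members among the 26 genes it called. No member had groups that did not overlap, where 8.87% of all genes did, 4.04% with all mutants above and 4.83% with all mutants below the controls. Without control 2 the median log2 fold change was -0.05, and 18 of 81 members lay above 0, so that the common direction rested on that library.

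Apart from Cox4nb, the members with the smallest p-values were Ndufs4, Uqcrh, Cox7a2, Uqcrb and Ndufa8. Ndufs4, an accessory subunit of complex I whose loss causes a fatal brain disease in mice, was measured at 157, 82.2 and 156 CPM in controls and at 181, 134 and 172 CPM in mutants. Its log2 fold change was 0.30 ± 0.26 (edgeR, unadjusted p = 0.286, adjusted p = 0.999). Uqcrh, the hinge protein of complex III, gave 0.29 ± 0.27, Cox7a2 0.28 ± 0.26, Uqcrb 0.28 ± 0.26 and Ndufa8 0.29 ± 0.28, each with an adjusted p of 0.999. The fold changes below 0 were those of Cox4nb at -0.34 ± 0.19 (unadjusted p = 0.115) and Cox7b2 at -0.20 ± 0.50. Cox7b2 had 14, 11 and 10 counts in controls and 8, 7 and 9 in mutants, so that it passed the filter on low counts only through the controls and its direction is no support for a difference. Myh6 and Tnnt2 gave 0.23 ± 0.57 and 0.20 ± 0.46. The log2 isoform ratios did not separate the groups either, with exact permutation p-values between 0.4 and 1 where 3 against 3 libraries cannot go below 0.1 (two-sided, 7 pairs). For Cox6a2 over Cox6a1 the mean was 1.63 ± 1.12 in controls and 2.11 ± 0.41 in mutants (SD, n = 3 each).

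Other genes of mitochondrial metabolism were described in the same way from lists of the pathways, on a background of 4.12% of all genes that rose with Tnnt2 and 2.43% that fell. Of 12 subunits and carriers that the naming rule leaves out, 8 rose with Tnnt2 and 0 fell, with a median slope of 0.72, among them Cycs, the electron carrier cytochrome c, at 0.78 ± 0.13 and Slc25a4, the ADP and ATP carrier of muscle, at 0.88 ± 0.13. Slc25a5, the form of that carrier in most tissues, had a slope of 0.41 ± 0.10 that did not pass. Of 28 assembly factors in the table, 10 rose and 0 fell, with a median slope of 0.35, such as Cox10, which makes the haem of complex IV, at 0.68 ± 0.11, while Surf1, another factor of complex IV, had a slope of 0.00 ± 0.08. The 13 subunits encoded in mitochondrial DNA were not analysed here.

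Of 17 genes of the citric acid cycle 15 rose with Tnnt2, where 4.12% of all genes did, with a median slope of 0.67, such as Cs, citrate synthase, at 0.60 ± 0.10 and Idh2 at 1.05 ± 0.17. Of 16 genes of fatty acid oxidation 12 rose, with a median slope of 0.73. Here too the muscle form of an enzyme and the form of other tissues differed: Cpt1b, which admits fatty acids into mitochondria of muscle, had a slope of 1.14 ± 0.17 past the threshold, and Cpt1a, the liver form, one of -0.25 ± 0.09 that was not. Of 17 genes of glycolysis 10 rose, with a median slope of 0.51, and Hk2, the hexokinase of muscle and fat, had a slope of 0.90 ± 0.11 where Hk1 had 0.23 ± 0.11 without passing.

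Of 15 regulators of these genes 4 rose with Tnnt2, where 4.12% of all genes did, and 0 fell. Ppargc1a, a coactivator of mitochondrial genes, was measured at 39.8, 19.4 and 41.0 CPM in controls and at 61.1, 29.1 and 48.0 CPM in mutants, with a slope of 0.83 ± 0.16. Esrra, a nuclear receptor that works with it, was measured at 96.6, 50.03 and 105 CPM in controls and at 135, 82.9 and 106 CPM in mutants, with a slope of 0.73 ± 0.10. Both were lowest in control 2 and highest in mutant 1. Ppargc1b and Ppara were the other two, with slopes of 0.69 ± 0.12 and 0.74 ± 0.16. The transcription factors Nrf1, Gabpa and Yy1 had slopes of -0.07 ± 0.08, 0.07 ± 0.08 and -0.11 ± 0.15, none past the threshold. Between mutants and controls 0 of the genes in these lists passed the edgeR test, as for all genes. Without control 2, 0 of them rose with Tnnt2, since 0 genes passed then.

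Markers of other cell types moved with these levels in part. The 6 smooth muscle markers summed to 6081, 13424 and 5902 CPM in controls and to 2231, 5604 and 6011 CPM in mutants; they were highest in control 2 and lowest in mutant 1, had a median slope of -0.99 on Tnnt2, and 2 of 6, Acta2 and Cnn1, fell with it past the threshold, where 2.43% of all genes fell. Their median r with Tnnt2 was -0.83 over the 6 libraries, -0.53 without control 2 and 0.80 without control 2 and mutant 1, so that the direction rested on those libraries. All 6 had a fold change of mutants over controls below 0, and 3 had all mutants below all controls (4.83% of all genes), with 0 called. The 7 white adipocyte markers summed to between 550 and 1398 CPM in controls and between 416 and 1064 CPM in mutants, highest in control 2, with 0 called. The 7 brown adipocyte markers summed to between 46.4 and 99.96 CPM in controls and between 48.3 and 56.6 CPM in mutants, and 1 of the 5 tested, Prdm16, a transcription factor known from the brown fat lineage, fell with Tnnt2 (slope -0.66, edgeR adjusted p = 0.045). It stood at 18.2, 30.1 and 11.8 CPM in controls and at 12.5, 13.9 and 15.8 CPM in mutants, highest in control 2. Ucp1, which defines these cells, was at 10.6 CPM in control 1, 3.45 CPM in mutant 3 and at most 0.329 CPM in the other 4. The 8 skeletal muscle markers summed to between 63.2 and 1258 CPM in controls and between 86.0 and 488 CPM in mutants, nearly all of it Acta1, whereas the adult fast myosin Myh4 was at 0 in 3 libraries and at most 0.109 CPM in the others, with 0 of 5 tested called on Tnnt2. The 7 endothelial markers summed to between 1420 and 2311 CPM in controls and between 1716 and 1965 CPM in mutants, and 6 macrophage markers to between 1247 and 1390 CPM and between 1650 and 1803 CPM, with 0 called on Tnnt2 in either list or in the valve interstitial list. Between the groups, all 6 macrophage markers had a fold change above 0, with a median log2 value of 0.36, and 4 of them (Cd68, C1qa, C1qb and Lyz2) had all mutants above all controls (4.04% of all genes) and an unadjusted p under 0.05 (3.45%), but 0 passed after adjustment (edgeR, smallest adjusted p = 0.999). The part of these markers in the results on the respiratory genes was not tested.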

How the data were processed

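RNA of aortic valve was sequenced on an Illumina HiSeq from TruSeq libraries. The deposited table holds estimated counts per gene, not normalised, which the authors made by aligning reads to mm10 with TopHat2 2.0.13 (per the labels with Bowtie2 2.2.1) and counting with Cuffdiff 2.1.1. How multiply mapped reads and strand were treated is not given in the sources used here. Fractions, found in 1.66% to 1.87% of the entries of a library, were rounded off first. Libraries of 1 group differed by more than counting error.

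Counts were scaled with TMM factors and tested with edgeR 4.0.16 (quasi-likelihood F test, R 4.3.3) over genes that reached 10 counts in 3 or more libraries, with Benjamini-Hochberg adjustment over all genes and a threshold of 0.05. A group fit compared 3 mutants with 3 controls, and slope fits used the log2 CPM of Myh6 or Tnnt2 over the 6 libraries. Permutation p-values of correlations were adjusted over all genes in place of the members alone. The group fit and both slope fits were also run on simulated data. The outcome is not given here, so that no conclusion on the calls is drawn from those runs. DESeq2 1.42.0, limma-voom 3.58.1, other scaling factors and filters, each library left out and a replicate block were alternatives. Lengths and positions came from GENCODE on GRCm38 (98.1% of genes matched), and near-identical transcripts from BLAST 2.17.0.

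Members, lists and tests were chosen with earlier results of these data known; the search for near-identical transcripts, the motifs and the correlations of isoform ratios were added after values were seen. Genes named were Myh6 and Tnnt2, isoform pairs, core subunits and the highest per kilobase of each complex, and members with the smallest p-values, extreme slopes, the largest spread or too few counts; other genes of the lists are named as examples. A core subunit that this rule names is not reported here.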

Additional observations from a re-analysis of the deposited data

How the results depend on the processing

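With 3 libraries a group, 1 library could decide a result, and control 2 decided most. Between mutants and controls DESeq2 called 26 genes against 0 with edgeR, and members called stayed at 0 under all alternatives run. The median log2 fold change of the members was 0.0519 with limma-voom sample quality weights and 0.0579 with Tnnt2 as a covariate. Myh6 turned to -0.1044 and Tnnt2 to -0.0612 with those weights, and Myh6 to -0.111 with Tnnt2 as a covariate. Upper-quartile factors gave 77 genes and 1 member on Myh6, and limma-voom 303 genes. With genotype as a further term 444 genes and 50 members passed on Tnnt2, 0 genes and 0 members passed on Myh6, and the slope of Cox7b2 on Myh6 turned to 0.0076. Spearman rho was 0.8286 as the median over members with Tnnt2, and 0.7714 with Tnnt2 and 0.9429 with Myh6 for the mean member level; without the 2 libraries farthest from the median, r was 0.7012 and 0.7469 with Tnnt2. Complex V made up 21.4% of the summed level per kilobase of merged exons, 36.3% without length and 28.7% by principal transcript, the last chosen after the data were seen.

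With each library left out in turn, the median log2 fold change of the members ran from -0.0502 to 0.3921, that of Myh6 from -0.3202 to 0.6762 and of Tnnt2 from -0.163 to 0.4452. Genes called on Tnnt2 ran from 0 to 930 and members from 0 to 72, genes called on Myh6 from 0 to 773 and members from 0 to 14. The median slope on Myh6 ran from 0.246 to 0.5805, the median r with Tnnt2 from 0.7628 to 0.9875, and r of the mean member level with Tnnt2 from 0.7958 to 0.9967. Slopes on Myh6 and Tnnt2 ran from -0.3144 to 0.4303 and from -0.7407 to 0.7333 for Cox4i2, from -0.5263 to 1.3412 and from -1.1518 to 1.4336 for Ndufs5, and, with mutants left out, from -0.1087 to 0.2559 and from -0.0637 to 0.1152 for Cox7b2, which had too few counts to be tested without any 1 control. Group differences of log2 isoform ratios ran from -0.535 to 0.1346 for Cox4i2 over Cox4i1, from -0.1596 to 0.8495 for Cox6a2 over Cox6a1, from -0.5011 to 0.2658 for Cox6b2 over Cox6b1, from -0.1734 to 0.084 for Cox7a1 over Cox7a2, from -0.2573 to 0.4667 for Cox8b over Cox8a and from -0.1115 to 0.3296 for Atp5g1 over Atp5g2.

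Whether same-numbered libraries of the groups belong together is not given. The correlations of their deviations were 0.41, 0.19 and 0.08, and those of differently numbered libraries ran from -0.38 to 0.23. With the replicate block 0 genes and 0 members passed on either cardiac gene, with median slopes of 0.55 on Tnnt2 and 1.1783 on Myh6. The block could not change the isoform differences, since the mean of differences within numbers equals the difference of group means.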
